A study of Mus musculus with 2 samples.

Results

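The glycosyltransferases and sulfotransferases that build mucin and cell surface glycans were followed across 3 sorted populations of mouse small intestinal epithelial cells. Members were the genes whose symbol in the platform's probe annotation belongs to the Galnt, C1galt1, Gcnt, B3gnt, B3galt, B4galt, B4galnt, St3gal, St6gal, St8sia, Fut or Chst series, which gave 81 genes of 16390 named on the array, in 12 families, with 1 probe each. All mice carried Atoh1-crePGR, Lgr5-EGFP-IRES-creERT2 and Rosa26-tdTomato, and all received intraperitoneal RU486 on 5 consecutive days. Atoh1, which drives the Cre fused to a progesterone receptor, is the transcription factor of the intestinal secretory lineage, so tdTomato marks cells that had Cre activity and their progeny. The 3 populations, sorted 20 days after recombination, were EGFP-/tdTomato+ (tdTomato only), EGFP+/tdTomato+ (double positive) and EGFP+/tdTomato- (EGFP only). EGFP stands at the Lgr5 locus, the gene that marks crypt base columnar stem cells. Each fraction was 1 biological replicate, with cells pooled from 4 mice.

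One array set tdTomato only against EGFP only and the other double positive against EGFP only, with EGFP only in Cy5 on both and no dye swap. With 1 array for each, no ratio has an error between replicates and no test could be made, so genes were counted at 2-fold or more. The labels give no age for the mice. The EGFP-only channel was read on both arrays, and its log2 difference between them had an SD of 0.0555 over 45 of the members (0.0843 over 15639 probes), which describes technical spread of 1 channel. The arrays had 67% to 77.1% of 23473 probes above background, meaning brighter than the mean plus 2 SD of the blank spots. Lgr5 had log2 ratios over EGFP only of −0.89 in tdTomato only and 0.26 in double positive, and −1.25 and 0.13 in the authors' deposited ratios. Summed over 14 goblet cell markers on the array, the intensity above the blank mean was 287200 in tdTomato only and 153100 in double positive, against 43360 and 49720 in the EGFP-only measurements. Over 9 Paneth cell markers the sum was larger in both, 335600 in tdTomato only and 351200 in double positive, against 46270 and 44040. The same sum over 16 T cell and intraepithelial lymphocyte markers was 5721 in tdTomato only and 13160 in double positive, against 1613 and 1684 in EGFP only, and over 16 stem cell markers 8978 and 12020 against 40500 and 40780. A sum is set mostly by the brightest genes of a list, and these sums set Cy3 against Cy5 without dye normalization. Genes of the stem cell list went both ways. Olfm4 had log2 ratios over EGFP only of −2.37 in tdTomato only and −1.56 in double positive. Ephb3 had 2.56 and 1.515, and Msi1 2.06 and 2.23. In sorted bulk populations, fewer cells of a type and less RNA per cell cannot be told apart.

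Mucin-type O-glycans begin in the Golgi when a Galnt enzyme adds N-acetylgalactosamine to a serine or threonine. C1galt1, with its chaperone C1galt1c1, adds galactose to give core 1, and Gcnt enzymes branch it into core 2. B3gnt, B3galt and B4galt enzymes then lengthen the chains, and sialyltransferases (St3gal, St6gal, St8sia), fucosyltransferases (Fut) and sulfotransferases (Chst) cap or sulfate them. In the intestine such chains make up most of the mass of the mucin glycoproteins that goblet cells secrete.

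Genes for the opening and branching steps of O-glycan synthesis (Galnt3, Galnt7, Galnt12, C1galt1, C1galt1c1 and Gcnt3) were at least 2-fold higher in both tdTomato-labelled populations than in EGFP only, as was Fut8. Of the genes above background in both channels, Chst4, St3gal4 and Chst12 passed 2-fold in tdTomato only alone and St3gal1 in double positive alone. Chst12 lay near the line in both, with log2 ratios of 1.15 and 0.90. St3gal1 also passed it in tdTomato only in the deposited ratios (1.71), after blank subtraction with loess (1.62) and with an offset of 16 (1.04). Galnt5 in tdTomato only and St6galnac6 in double positive, not well above background in EGFP only, were past 2-fold by their lower bounds. The chain-lengthening families had no measured member past 2-fold, beside 6.15% of all genes higher in tdTomato only and 5.1% in double positive. They had 5 B3gnt, 5 B4galt and 2 B3galt genes measured, so few that 0 is near those shares. Of 45 members above background in both channels, 10 were at least 2-fold higher in tdTomato only than in EGFP only, where 6.15% of all genes measured were. No member was 2-fold lower, where 1.19% of all genes were. The members' median log2 ratio was 0.08, against −0.01 for all genes. In double positive over EGFP only, 8 of 48 measured members were at least 2-fold higher, beside 5.1% of all genes, and 0 were 2-fold lower, beside 0.34% of all genes. There the members' median was 0.12, against −0.01 for all genes. Both comparisons share the EGFP-only population, and their counts depended on the normalization. Median centring without loess left 5 of 45 members in tdTomato only, beside 3.58% of all genes, and 3 of 48 in double positive, beside 3.09%. That scaling puts the median of all genes at −0.21 in each comparison.

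**Figure D1:**
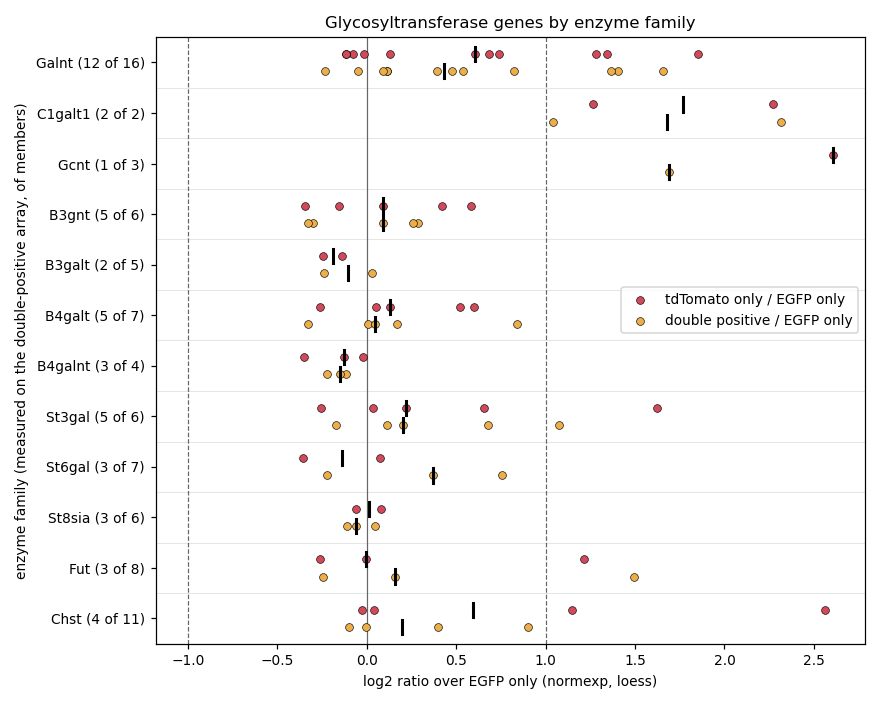
Log2 ratio over EGFP only (x axis) of every member above background in both channels, by enzyme family (y axis), for tdTomato only (red) and double positive (orange); each point is 1 gene on 1 array, black ticks are family medians and dashed lines mark 2-fold. Points of the C1galt1 and Gcnt families lie beyond 2-fold, those of B3gnt, B3galt, B4galt, B4galnt, St6gal and St8sia within it.

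Both members of the C1galt1 family, the core 1 enzyme and its chaperone, exceeded 2-fold. C1galt1c1, known as Cosmc and needed for C1galt1 to fold, had spot intensities of 1412 in tdTomato only and 1448 in double positive, against 425 and 452 in EGFP only. Its log2 ratios were 2.27 (4.82-fold) in tdTomato only and 2.31 (4.98-fold) in double positive, and both were above 1 under each normalization tried. C1galt1, the core 1 galactosyltransferase itself, read 258 in tdTomato only and 219 in double positive, against 134 and 135 in EGFP only. Before any dye correction, both Cy3 spots were thus brighter than either EGFP-only Cy5 spot of the gene. Its log2 ratios of 1.27 and 1.04 in the same order stood near the 2-fold line, and median centring gave 0.96 and 0.74, where the median of all genes is −0.21.

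The Galnt family, which starts the chains, had 11 of 16 members measured in tdTomato only and 12 in double positive, with median log2 ratios of 0.61 and 0.43. Galnt12, Galnt3 and Galnt7 exceeded 2-fold in both. Galnt12, an initiating enzyme abundant in the digestive tract, read 1565 in tdTomato only and 1364 in double positive, against 639 and 675 in EGFP only, for log2 ratios of 1.85 and 1.66. Galnt3, an initiating enzyme known for the processing of the phosphate hormone Fgf23, read 562 and 584 against 303 and 318, with log2 ratios of 1.34 in tdTomato only and 1.41 in double positive. Galnt7 prefers peptides that already carry a sugar. It read 810 in tdTomato only and 850 in double positive, against 468 and 494 in EGFP only, with log2 ratios of 1.28 and 1.37. Under median centring Galnt12 stayed beyond 2-fold, and Galnt3 and Galnt7 lay between 0.80 and 0.94.

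Galnt5 was above background in tdTomato only, with an intensity of 149 against 74.5 in EGFP only, and not well above background there in EGFP only. It was at least 2.19-fold higher in tdTomato only than in EGFP only. Such bounds compare the bright level with the dim spot's level or, if higher, with the faintest level that counts as above background. On the other array its EGFP-only spot, 75.4, passed the limit of 74.1, which was 75.7 on the first, and 124 in double positive gave a log2 ratio of 0.83. That ratio was past 2-fold with an offset of 16 (1.46), after blank subtraction with loess (2.99) and in the deposited ratios (3.18). Galnt6 (0.68 in tdTomato only and 0.39 in double positive), Galnt10 (0.74 and 0.47) and Galnt1 (0.61 and 0.54) lay between EGFP only and 2-fold, though median centring took Galnt1 in double positive to −0.03. Galntl1, now named Galnt16, was the lowest of the measured family members, at −0.12 in tdTomato only and −0.24 in double positive. The ubiquitous Galnt2 had −0.11 in tdTomato only and 0.12 in double positive, and the last turned below 0 under median centring. After normexp with an offset of 50 and loess the family was therefore split, with 3 genes past 2-fold in both populations. Galnt5 was past it by its bound in tdTomato only, and the other measured genes were within it in both.

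Gcnt3, the branching enzyme of mucin-secreting tissues that makes core 2 and core 4, had the highest log2 ratio of any member in tdTomato only. Its intensities were 736 in tdTomato only and 396.5 in double positive, against 171 in each EGFP-only measurement. The log2 ratios were 2.61 (6.09-fold) in tdTomato only and 1.69 (3.23-fold) in double positive, and every normalization tried gave values above 1 in both. The core 2 enzyme Gcnt1 was above background in both descendant populations, at 87.0 each, and not well above background in EGFP only, with bounds of at least 1.06-fold in tdTomato only and 1.12-fold in double positive. Gcnt2, which branches poly-N-acetyllactosamine, was not well above background in any channel.

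**Figure D2:**
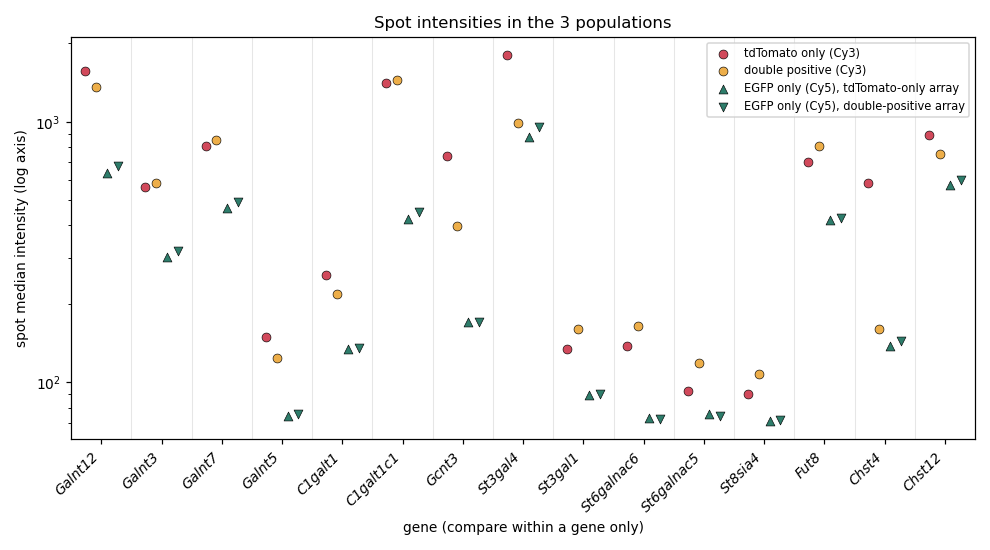
Spot median intensity (y axis, log scale) of 15 members (x axis) in tdTomato only (red circles), double positive (orange circles) and both EGFP-only measurements (green triangles), 1 spot value per array and channel. Chst4 and St3gal4 stand highest in tdTomato only, C1galt1c1 and Galnt7 are alike in both descendant populations, and St8sia4 and St6galnac6 are highest in double positive.

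Chain-lengthening enzymes showed no ratio past 2-fold. For so few measured genes this is near the shares of all genes, 6.15% higher in tdTomato only and 5.1% in double positive. The B3gnt family, N-acetylglucosaminyltransferases, had a median log2 ratio of 0.09 in tdTomato only and 0.09 in double positive over 5 of 6 members. B3gnt3, which extends core 1, was its highest member, with 292 in tdTomato only and 239 in double positive against 247 and 252 in EGFP only, and log2 ratios of 0.58 and 0.29. Median centring took its double-positive ratio to −0.09. B3gnt1, a symbol that by now may mean B3gnt2 or B4gat1, had −0.35 in tdTomato only and −0.30 in double positive, and B3gnt2, a poly-N-acetyllactosamine synthase, had −0.15 and −0.33. The spread within this family was thereby smaller than 2-fold around EGFP only.

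Measured members of the B4galt, B3galt and B4galnt families were also within 2-fold of EGFP only. B4galt1, which makes N-acetyllactosamine, read 414 in tdTomato only and 474 in double positive, against 362 and 376 in EGFP only, with log2 ratios of 0.60 and 0.84. B4galt6, a lactosylceramide synthase, was the lowest, at −0.26 in tdTomato only and −0.33 in double positive. B4galt medians were 0.13 and 0.05 over 5 of 7 members, and −0.06 and −0.18 under median centring. The B3galt family had 2 of 5 members measured, B3galt6, a linker enzyme of proteoglycans, at −0.14 in tdTomato only and 0.03 in double positive, and B3galtl, now B3glct, at −0.24 in each. All 3 measured B4galnt members were below 0 in both comparisons, apart from B4galnt1 in tdTomato only under another normalization. B4galnt2, which makes the Sda antigen of the gut, read 760 in tdTomato only and 810 in double positive against 1185 and 1356 in EGFP only, with log2 ratios of −0.13 and −0.12 after loess. B4galnt4 had −0.35 in tdTomato only and −0.15 in double positive, and the ganglioside enzyme B4galnt1 −0.02 and −0.22.

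Capping enzymes split gene by gene. Among the St3gal sialyltransferases, St3gal4, which caps N-acetyllactosamine, read 1798 in tdTomato only and 986 in double positive, against 874 and 951 in EGFP only. Its log2 ratios were 1.62 (3.08-fold) in tdTomato only and 0.68 (1.60-fold) in double positive, so the gene passed 2-fold in tdTomato only alone. St3gal1, which caps core 1, had the opposite order, 135 in tdTomato only and 160 in double positive against 89.5 and 90.2 in EGFP only. Its log2 ratios were 0.65 in tdTomato only and 1.08 in double positive, 1.71 and 2.39 in the authors' deposited ratios, and 0.55 and 0.89 under median centring. St3gal3, the lowest of the family, had −0.25 in tdTomato only and −0.17 in double positive, and the family medians were 0.22 and 0.20 over 5 of 6 members.

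Of the St6gal group, 2 of 7 members were measured in tdTomato only and 3 in double positive. St6galnac1, which makes the sialyl-Tn antigen of intestinal mucin, had 105 in tdTomato only and 104 in double positive, against 128 and 122 in EGFP only. Its log2 ratios were −0.35 and −0.22, and it was below 0 in each normalization tried. St6gal1, which caps N-glycans, had 0.08 in tdTomato only and 0.37 in double positive. St6galnac6, a sialyltransferase of gangliosides, was well above background in both descendant populations, 138 in tdTomato only and 164 in double positive, and not well above background in EGFP only, at 72.8 and 72.1. It was at least 1.99-fold higher in tdTomato only and at least 2.72-fold higher in double positive than in EGFP only. St6galnac5, of the same ganglioside branch, read 92.7 in tdTomato only and 119 in double positive against 75.3 and 74.2, with a bound of 1.09-fold in tdTomato only and a log2 ratio of 0.76 in double positive.

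St8sia4, the polysialyltransferase, read 90.2 in tdTomato only and 108 in double positive, against 71.0 and 71.9 in EGFP only, where it was not well above background. The bounds were at least 1.11-fold in tdTomato only and at least 1.51-fold in double positive. The measured St8sia members lay between −0.06 (St8sia5) and 0.08 (St8sia6) in tdTomato only, and between −0.11 and 0.05 for the same genes in double positive. St3gal1, St6galnac6, St6galnac5 and St8sia4 shared the order of the lymphocyte markers, with double positive above tdTomato only above EGFP only. The order was not particular to them, as Fut8, B4galt1, St6gal1, Galnt7 and Galnt3 had it in their log2 ratios too. Of those 16 markers 15 were above background in each descendant population and 13 in each EGFP-only measurement, Cd3e was in none, and their median log2 ratios were 0.96 in tdTomato only and 1.89 in double positive. Their part in these ratios was not tested.

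Fut8, which adds the core fucose of N-glycans, was the one fucosyltransferase past 2-fold after normexp and loess. Its intensities were 704 in tdTomato only and 807 in double positive, against 421 and 426 in EGFP only, and its log2 ratios 1.22 and 1.49. Median centring gave 0.75 and 0.99, short of 2-fold. Fut11 was the lowest of the 3 measured Fut members, at −0.26 in tdTomato only and −0.24 in double positive. Fut4, a fucosyltransferase of Lewis structures, had −0.00 and 0.16, with EGFP-only spots near the blanks. Blank subtraction with loess gave Fut4 0.04 in tdTomato only and 1.12 in double positive. The deposited ratios were 0.56 and 1.55. Fut2, the fucosyltransferase of secreted intestinal mucin, read 82.4 in tdTomato only and 80.0 in double positive against 68.0 and 68.4, not well above background in any channel. The same held for Fut7 and Fut10, so these arrays give no ratio for them.

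Chst4, a sulfotransferase that acts on N-acetylglucosamine, had the largest difference between the descendant populations. It read 585 in tdTomato only and 160 in double positive, against 138 and 144 in EGFP only. The tdTomato-only spot alone stood apart from the others. Its log2 ratio was 2.56 (5.91-fold) in tdTomato only and 0.40 (1.32-fold) in double positive. Chst12, which sulfates chondroitin, read 893 in tdTomato only and 752 in double positive, against 571 and 599 in EGFP only, with log2 ratios of 1.15 and 0.90. Its tdTomato-only ratio was 1.01 after quantile normalization and 0.65 under median centring. Chst7 was the lowest of the 4 measured of 11 Chst members, at −0.03 in tdTomato only and −0.10 in double positive.

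Placed against double positive, tdTomato only differed in few of these genes. Over 45 members above background in all 4 channels, 1 was at least 2-fold higher, beside 0.813% of all genes, and 0 were 2-fold lower, beside 0.274% of all genes. Chst4 was that gene, with a log2 difference of 2.16 (4.48-fold) that lay between 2.05 and 2.68 over the normalizations tried. St3gal4 and Gcnt3 followed with 0.94 (1.92-fold) and 0.92 (1.89-fold), and each stayed between 0.86 and 0.98. The lowest was St3gal1, at −0.42, or 1.34-fold lower in tdTomato only. The members' median was 0.02, against −0.02 for all genes. Goblet markers had a median log2 difference of 1.24 over 12 measured and were above 0 in 12 of 12, enterocyte markers 0.37 over 14, and lymphocyte markers −0.98 over 13. The part of such cells in the Chst4, St3gal4 and Gcnt3 values was not tested.

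**Figure D3:**
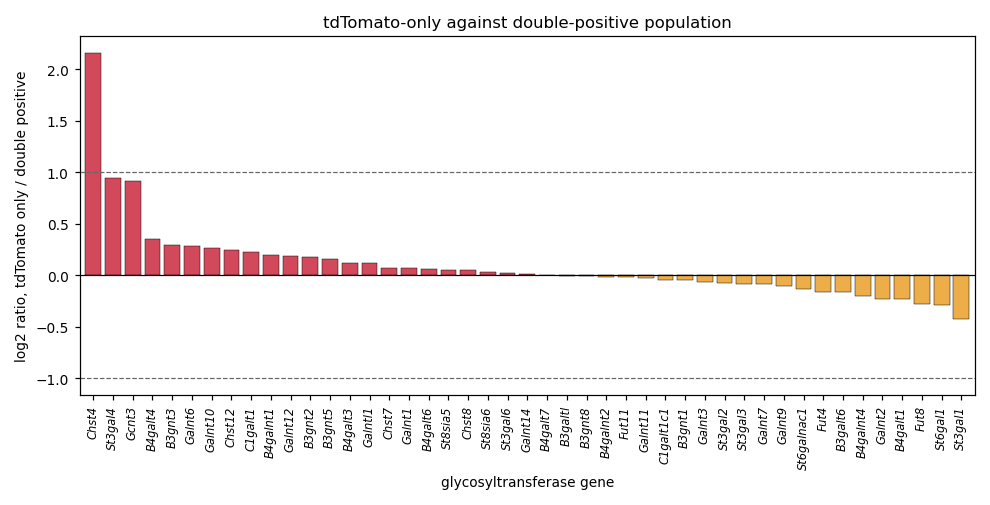
Log2 ratio of tdTomato only over double positive (y axis), the difference of both arrays' ratios over EGFP only, for the 45 members above background in all 4 channels (x axis, in order of value); dashed lines mark 2-fold. The Chst4 bar at 2.16 is past 2-fold, St3gal4 and Gcnt3 are just under it and St3gal1 is lowest at −0.42.

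Many members were too dim for a ratio. On the tdTomato-only array 45 members were above background in both channels, 14 in tdTomato only alone, 0 in EGFP only alone and 22 in neither. On the double-positive array the counts were 48, 14, 0 and 19. Both channels were above background for 55.6% of the members on the tdTomato-only array and 59.3% on the double-positive array, against 69.4% and 71.8% of all genes. Among all genes 6.35% were above background in tdTomato only alone and 1.23% in EGFP only alone, and 8.45% and 0.738% on the double-positive array. Of the 81 members 18 were above background in no channel. B4galt2 had the third highest bound in each comparison, at least 1.15-fold in tdTomato only and at least 1.18-fold in double positive.

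The authors' deposited ratios, which rest on blank-subtracted signals, put more members past 2-fold. They had 17 of 52 members at least 2-fold higher in tdTomato only, beside 12.8% of all genes, and 0 lower, beside 6.92%. In double positive 17 of 53 were higher, beside 12.2%, and 0 lower, beside 3.5%. The medians of the members were 0.54 in tdTomato only and 0.46 in double positive. The 7 members past 2-fold in the deposited tdTomato-only ratios alone were Galnt5 (3.84), St6galnac6 (4.05), St3gal1 (1.71), Fut1 (1.51), St6galnac2 (1.43), St6galnac5 (1.35) and Galnt6 (1.07). Their EGFP-only intensities were 72.2 to 126.5, against a background limit of 75.7, while members past 2-fold under both methods had 134 to 874. In double positive the 9 were St6galnac6 (4.98), St8sia4 (3.52), St6galnac5 (3.27), Galnt5 (3.18), St6galnac2 (1.72), Fut4 (1.55), Chst10 (1.49), St3gal2 (1.06) and St6gal1 (1.06), with EGFP-only intensities of 71.9 to 93.9. There the members past 2-fold under both methods had 90.2 to 675, so the ranges overlapped, with St3gal1 at the low end. Most of these genes thus had EGFP-only spots near the blanks. Between the descendant populations the deposited ratios had 1 of 51 members higher, beside 1.76% of all genes, and 1 lower, beside 1.76%: Chst4 at 2.55 and St6galnac5 at −1.92.

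**Figure D4:**
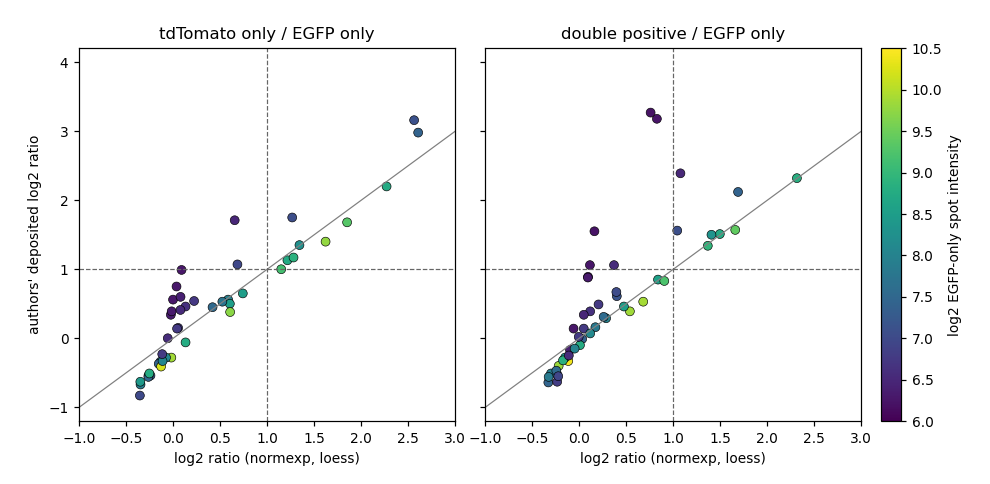
Authors' deposited log2 ratio (y axis) against the ratio after normexp and loess (x axis) for members with both, tdTomato only over EGFP only on the left and double positive over EGFP only on the right; colour is the log2 EGFP-only intensity, dashed lines mark 2-fold and the solid line equality. Bright spots lie near the line, most of them a little below it, and some spots of middling brightness, such as St6galnac1, lie further below. Most of the darkest points, with EGFP-only spots near the blanks, lie above it. Among these dark points Chst7 and St8sia5 in double positive lie below it.

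The supply of activated sugars and sulfate was read from a list of 36 genes on the array, 34 of them measured. In tdTomato only 5 were at least 2-fold higher than in EGFP only, beside 6.15% of all genes, and 0 lower, beside 1.19%. The list's median log2 ratio there was 0.49. In double positive 3 were higher, beside 5.1% of all genes, and 1 lower, beside 0.34%, with a median of 0.28. Median centring gave list medians of 0.02 in tdTomato only and −0.23 in double positive. Gfpt1, the rate-limiting enzyme of the hexosamine pathway, had log2 ratios of 1.51 in tdTomato only and 1.50 in double positive. Pgm3 and Uap1, later steps to UDP-N-acetylglucosamine, had 1.09 and 1.17 in tdTomato only and 1.07 and 0.99 in double positive. Slc26a2, a sulfate transporter of the plasma membrane, had 2.23 (4.69-fold) in tdTomato only and 0.86 in double positive. Its log2 difference of 1.37 was the one in the list past 2-fold between tdTomato only and double positive, and was followed by Pmm2, of GDP-mannose synthesis (0.79), and Bpnt1, which clears a byproduct of sulfation (0.73). Gfus, the last enzyme of GDP-fucose synthesis, had 1.16 in tdTomato only and 0.60 in double positive. Gne, the rate-limiting enzyme of sialic acid synthesis, had 0.76 and 1.08, and the galactokinase Galk1 −0.88 and −1.10.

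**Figure D5:**
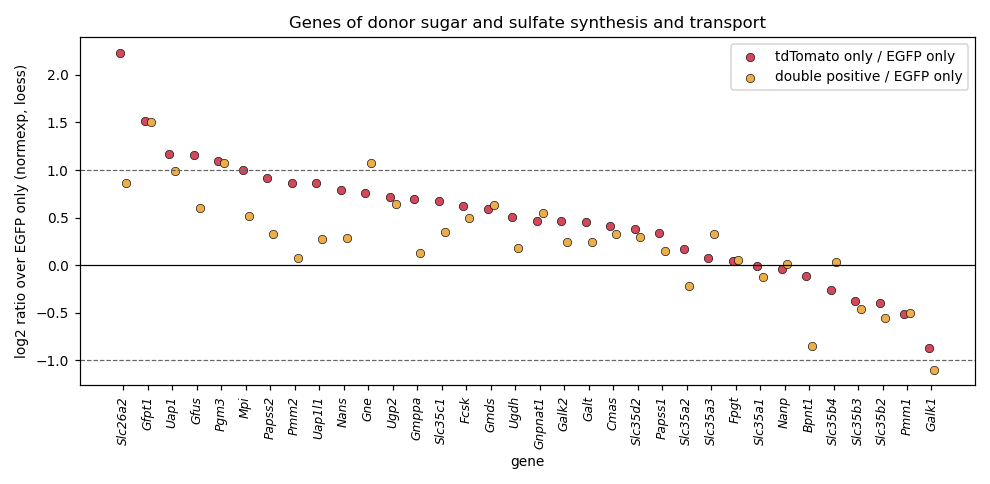
Log2 ratio over EGFP only (y axis) of the 34 measured genes of donor sugar and sulfate synthesis and transport (x axis, in order of the tdTomato-only value) for tdTomato only (red) and double positive (orange), 1 array each; dashed lines mark 2-fold. Slc26a2 is highest in tdTomato only and Gfpt1 in double positive, while Galk1 is lowest in each.

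Other glycan enzymes on the array, 46 in the list, had medians of 0.01 over 36 measured in tdTomato only and 0.11 over 38 in double positive. Man1a, a Golgi mannosidase that trims N-glycans, was past 2-fold in both, at 1.05 in tdTomato only and 1.42 in double positive, and Mgat4c, a branching enzyme, at 1.01 in tdTomato only. The galactose sulfotransferase Gal3st2 had 0.98 in tdTomato only, and its difference from double positive was 0.65. Mgat2 had 0.95 and Man2a1 0.91 in double positive, both N-glycan enzymes. No gene of this list was past 2-fold between tdTomato only and double positive, beside 0.813% of all genes higher and 0.274% lower. Chpf, of chondroitin synthesis, had −0.42 there and Man1a −0.37.

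Among sialidases, fucosidases and related lysosomal enzymes, 8 were measured, with medians of 0.13 in tdTomato only and 0.02 in double positive. Fuca1, a lysosomal fucosidase, was past 2-fold in tdTomato only at 1.01, and had 0.52 in double positive. Fuca2, of the same family, had 0.65 in tdTomato only and 0.55 in double positive. The sialidases Neu1, at 0.35 in tdTomato only, and Neu4, at −0.34 in double positive, stayed within 2-fold. Between the descendant populations Neu4 had a difference of 0.58, Fuca1 of 0.49 and the galactosidase Glb1 of 0.28.

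A list of mucins, goblet cell proteins and other glycoproteins, some of which carry such glycans, varied from gene to gene. Of 22 genes of this list on the array, 19 were measured in tdTomato only and 20 in double positive. In tdTomato only 6 were at least 2-fold higher, beside 6.15% of all genes, and 1 lower, beside 1.19%. In double positive 4 were higher, beside 5.1% of all genes, and 1 lower, beside 0.34%. Agr2, a disulfide isomerase of mucin folding, had 3.68 in tdTomato only and 2.63 in double positive. The mucus lectin Zg16, saturated in tdTomato only so that its value there is an underestimate, had 4.58 and 2.18. Tff3, the goblet trefoil peptide, had 3.30 in tdTomato only and 1.88 in double positive. Dmbt1, a scavenger receptor glycoprotein, had −1.36 and −2.08. The mucins named next were chosen after their values were seen. Muc2, the main secreted mucin, had 0.16 in tdTomato only and −0.40 in double positive. Of the membrane mucins, Muc13 had 1.82 in tdTomato only and 1.74 in double positive, Muc3 1.09 and 0.44, and Muc4 −0.74 and −0.66. The Muc2 probe therefore did not follow Agr2, Zg16 and Tff3.

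Promoters were read for the members past 2-fold, from RefSeq on GRCm38.p6, 250 bases before to 50 after the start. Of the 11 members measured in both channels and past 2-fold in either comparison with EGFP only, 7 had an entry. The E-box CAGCTG, which Atoh1 can bind, was searched on both strands and stood in 2 of those 7, Chst4 and C1galt1, in 15 of 54 other members (27.8%) and in 18.3% of 27025 genes. Both sequences are shown since these genes differ in pattern, Chst4 higher in tdTomato only and C1galt1 in both descendant populations. Chst4 lies on the minus strand at chr8:110039285-110039584 and C1galt1 on the plus strand at chr6:7844974-7845273. Capitals mark CAGCTG, whose first base is at −195 from the Chst4 start and at 29 from the C1galt1 start.
Chst4: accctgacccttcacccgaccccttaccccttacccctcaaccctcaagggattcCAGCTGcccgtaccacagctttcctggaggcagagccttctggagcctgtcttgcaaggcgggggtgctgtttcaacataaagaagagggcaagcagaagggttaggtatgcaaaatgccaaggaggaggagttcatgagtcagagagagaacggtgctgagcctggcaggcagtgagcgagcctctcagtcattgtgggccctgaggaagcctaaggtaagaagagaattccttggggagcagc
C1galt1: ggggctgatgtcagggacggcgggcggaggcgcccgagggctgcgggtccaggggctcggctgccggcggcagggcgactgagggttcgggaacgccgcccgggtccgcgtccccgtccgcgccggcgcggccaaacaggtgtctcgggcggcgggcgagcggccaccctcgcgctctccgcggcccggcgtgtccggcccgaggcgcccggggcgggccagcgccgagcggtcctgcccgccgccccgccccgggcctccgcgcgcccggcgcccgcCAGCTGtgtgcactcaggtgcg
The E-box CAGATG was in 0 of 7, in 20.4% of other members and in 19.2% of genes. The Spdef-type motif GGATG was in 2 of 7 (Chst12 and Fut8), 63.0% and 46.3%, and ATCCTA in 1 of 7 (Fut8), 9.26% and 9.22%. The Hnf4 motif CAAAGTCCA was in 0 of 7, 1.85% and 0.555%. A match describes letters in this window only.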

How the data were processed

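Total RNA of sorted cells was amplified, dye-coupled and hybridised to Toray 2-colour arrays, per the labels' protocols. The authors deposited the median intensity of each spot in both channels, per the file headers, with no background subtracted judging from the blanks, and log2 ratios that had been normalized, with EGFP only as the denominator, per the labels. Subtracting the mean of the blanks without the highest and lowest 5%, taking log2 and centring gave the deposited ratios within 0.02 for at least 99.99% of probes, and each column had a median of 0.

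Intensities were corrected with normexp (offset 50, no local background) and loess within each array, with controls at weight 0 (limma 3.58.1, R 4.3.3). Probes over the mean plus 2 SD of the blanks counted as above background, a gene was called past 2-fold when its log2 ratio reached 1 or −1, and the third comparison is the difference of both arrays' ratios over probes above background in all 4 channels. No test was made, as there is 1 array per comparison, and the number of arrays limits the precision. Bounds use levels after loess and Aquantile, and dye bias was not tested. Members and gene lists were chosen with earlier results of these data known. Named are members past 2-fold, those past 2-fold in the deposited ratios alone, the highest and lowest of each family, those with the highest bounds, and up to 3 genes of each list per comparison. Gene names come from the platform's annotation. Of the members 75 have current symbols, 5 have been renamed and 1 is ambiguous. A further 5 probes, filed under older names, now have symbols of these families and were not counted. No member was saturated or quality-marked. Alternatives were the deposited ratios, median centring, blank subtraction with loess, quantile normalization, a limit of 4 SD, the brightest probe and an offset of 16.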

Additional observations from a re-analysis of the deposited data

How the results depend on the processing

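The members' median log2 ratio over EGFP only, 0.08 in tdTomato only, was 0.54 in the authors' deposited ratios and 0.25 after blank subtraction with loess. In double positive, 0.12 became 0.46 in the deposited ratios, 0.38 after blank subtraction, 0.21 with an offset of 16 and 0.0012 under median centring. The number of members at least 2-fold higher, 10 in tdTomato only and 8 in double positive, was 17 and 17 in the deposited ratios and 5 and 3 under median centring, which also moved the median of all genes to −0.21. Of all genes, 12.8% in tdTomato only and 12.2% in double positive were higher in the deposited ratios. Under median centring these shares were 3.58% and 3.09%. The members lost under median centring were C1galt1, Fut8, Galnt3 and Galnt7 in both, Chst12 in tdTomato only and St3gal1 in double positive, and quantile normalization lost C1galt1 and St3gal1 in double positive. Blank subtraction with loess gained Galnt6 and St3gal1 in tdTomato only, and Fut4, Galnt5 and St6galnac5 in double positive. An offset of 16 gained St3gal1 in tdTomato only, and Galnt5 and St6galnac5 in double positive. Between tdTomato only and double positive, the number at least 2-fold lower, 0, was 1 in the deposited ratios (St6galnac5) and 1 after blank subtraction (Fut4), while Chst4 alone was higher in each of the alternatives tried. The brightest-probe rule changed nothing, since each member has 1 probe. No paired analysis was possible because each comparison rests on 1 array. No replicate could be left out for the same reason. Members with EGFP-only spots near the blanks are limited by signal over background, and their ratios moved most with the background correction.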
